A study of Homo sapiens with 7 samples.

Results

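Amino acid transporter genes of 6 solute carrier families were measured by RNA-seq in H9, a pluripotent cell line derived from a human embryo. The members are the rows of the deposited count table whose symbol names an SLC1, SLC3, SLC7, SLC36, SLC38 or SLC43 gene. This gave 40 of 59251 rows. The rule uses symbols and no measured value, but it was set with earlier results of these data known. Naive-state H9 cells kept in RSeT medium were transfected with guide RNA plasmids named DJL1 (3 libraries) or handled as the control named CTRL (4 libraries), and RNA was taken 48 h later. Both groups were in medium with 10 nM DZNep, an inhibitor of histone methylation, and 5 nM TSA, a histone deacetylase inhibitor. Both also received, for 16 h after transfection, the CEPT survival cocktail of Chroman 1, Emricasan, polyamines and Trans-ISRIB, the last an inhibitor of the integrated stress response. The labels name neither the protein that the guides direct nor what the CTRL cells received in place of the DJL1 guides, and they do not say whether the replicates were separate cultures. The p-values therefore measure the spread between these libraries, which may be technical.

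Cells import amino acids through carriers that differ in substrate and in the ion or amino acid moved in exchange. SLC7 light chains hold the transport channel of heterodimers and need a heavy chain of the SLC3 family to reach the membrane, whereas the cationic carriers of SLC7 and the SLC1, SLC36, SLC38 and SLC43 carriers work without one. Many of these genes are known targets of ATF4, the transcription factor of the amino acid response, and leucine, arginine and glutamine brought in by them feed the mTORC1 kinase at the lysosome. Human pluripotent stem cells are known to rely on imported amino acids, methionine among them.

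Levels are in CPM, counts per 1000000 counts of the scaled library. Total counts ran from 62277489 to 76691997 in CTRL and from 34634882 to 37795742 in DJL1, and every DJL1 library was thus shallower than every CTRL library. As edgeR's biological coefficient of variation, libraries of one group differed by 3.46% in CTRL and 13.8% in DJL1. POU5F1, a marker of the labelled cell type, was at 5324 ± 73.1 CPM (SD, n = 4) in CTRL against 5354 ± 269 CPM (SD, n = 3) in DJL1. Of 12 pluripotency markers 4 were higher and 6 lower, against 27.0% and 25.1% of all tested genes. NANOG, SOX2, DPPA4 and TDGF1 were among the lower (log2 fold changes -0.50, -0.39, -0.66 and -0.63). KLF17 was among the higher, from 2.48 CPM in CTRL to 9.36 CPM in DJL1, as was SUSD2 (log2 fold change 1.00). Values with ± below are mean ± SD over these 4 and 3 libraries, and ± after a log2 fold change is its standard error. Markers of other cells also differed with the group. Of 15 fibroblast and feeder markers 13 were tested, of which 11 were higher and 0 lower, against 27.0% and 25.1% of all tested genes. By edgeR, DESeq2 and limma-voom alike, 0 of these markers were lower, adjusted or at an unadjusted p under 0.05. The summed level of the list was 1228 to 1248 CPM in CTRL and 1630 to 1768 CPM in DJL1. The untested LUM and DCN were at no more than 0.12 CPM in either group mean. Of 15 trophectoderm markers 12 were tested, of which 11 were higher and 1 (CGB3) lower, again beside 27.0% and 25.1% of all tested genes. The sums of that list were 20.0 to 24.5 CPM in CTRL and 54.7 to 67.4 CPM in DJL1. The untested ELF5 and VGLL1 were at 0 in the DJL1 libraries, and the untested CGA had a DJL1 mean of 0.06 CPM. These markers moved with the group in which the transporters below differ, and their part in those differences was not tested. In bulk RNA, fewer cells of a type and less RNA per cell cannot be told apart.

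The transporter genes went in both directions, mostly by less than 2-fold. Of the 40 members, 36 passed the filter on low counts, all 36 of them through the CTRL libraries alone, and DJL1 libraries had 13 of them higher and 8 lower at a Benjamini-Hochberg adjusted p of 0.05 in edgeR's quasi-likelihood fit. Over all 26062 tested genes, 27.0% were called higher, 25.1% lower and 52.0% either way, so the members' share called, 58.3%, was near the background. The median log2 fold change was 0.10 over the 36 members and 0.01 over all tested genes. Called changes of at least 2-fold were 5 increases and 0 decreases, against 10.7% and 2.20% of all tested genes, and the lowest fitted log2 fold change of any member was -0.60. For 23 members no DJL1 value overlapped a CTRL value, 14 above and 9 below, a share of 63.9% against 53.6% of all tested genes. Among the 24 members that reached 10 CPM in either group mean, 8 were higher and 8 lower (27.9% and 42.8% of all such genes), and among the 12 under that level 5 were higher and 0 lower (26.2% and 10.9%). Called either way were 66.7% of the 24 and 41.7% of the 12, against 70.7% and 37.1% of all genes at those levels. The 52.0% set beside single roles below is not matched for level. At an unadjusted p under 0.05, 2 of those 12 were lower by edgeR and by DESeq2 and 1 by limma-voom, and DESeq2 and limma-voom also called 0 lower. The 5 increases of at least 2-fold were SLC1A3, SLC36A2, SLC38A4, SLC7A9 and SLC7A14, and all of these but SLC1A3 stayed under 3 CPM. Together the members held 0.254% to 0.257% of the counts in CTRL and 0.271% to 0.277% in DJL1.

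**Figure D1:**
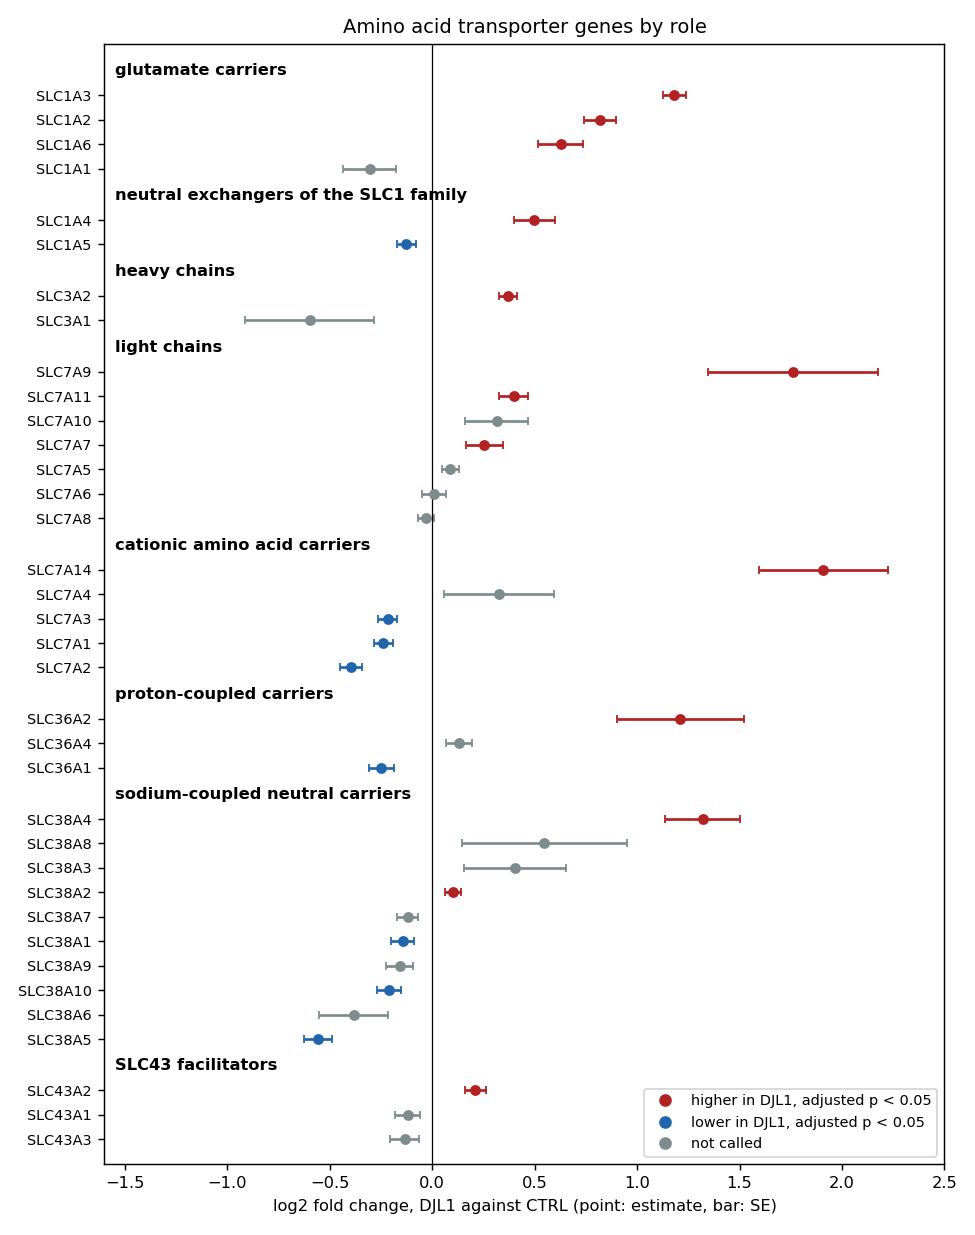
Log2 fold change of DJL1 against CTRL (x axis, point) with its standard error (bar) for the 36 tested transporter genes, grouped by role (y axis); red is higher, blue lower and grey not called. The glutamate carriers SLC1A3 and SLC1A2 lie at 1.18 and 0.82, and the cationic carriers SLC7A1, SLC7A2 and SLC7A3 between -0.22 and -0.40.

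**Figure D2:**
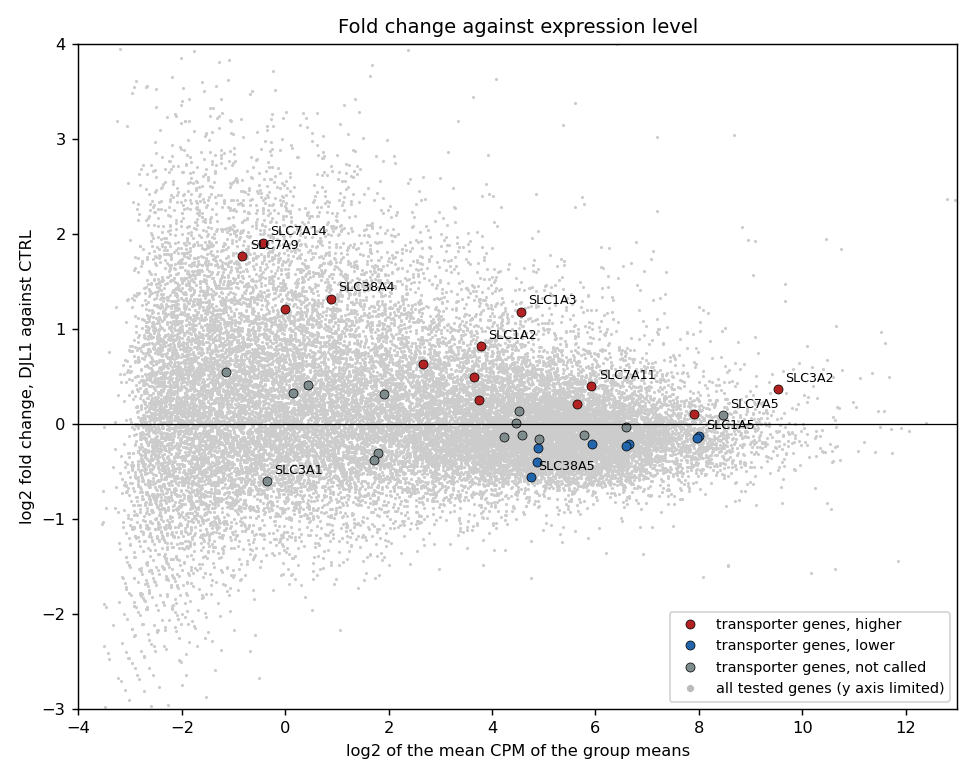
Log2 fold change (y axis) against the log2 of the mean CPM of the group means (x axis) for the transporter genes (large points, coloured by call) over all tested genes (light grey). The members called lower all sit at 10 CPM or more, while 4 of the 5 increases of at least 2-fold sit at the low end.

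Ranked per 1000 bases of exon (GENCODE release 29), the heavy chain SLC3A2 led in both groups, at 189.6 CPM per 1000 bases in CTRL and 245 in DJL1. In CTRL it was followed by SLC1A5 at 79.9, SLC7A5 at 74.5, SLC7A3 at 47.6, SLC38A2 at 44.0 and SLC38A1 at 27.0 CPM per 1000 bases. In DJL1 the order of SLC1A5 (73.3) and SLC7A5 (79.3) was the other way round in the means, but not in DJL1 replicate 3 (78.6 and 77.7). SLC38A2 (47.3) stood above SLC7A3 (40.9) in all DJL1 libraries. These lengths join the exons of all isoforms, so a gene with long alternative ends, such as SLC1A2 with 18035 bases, is placed low.

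**Figure D3:**
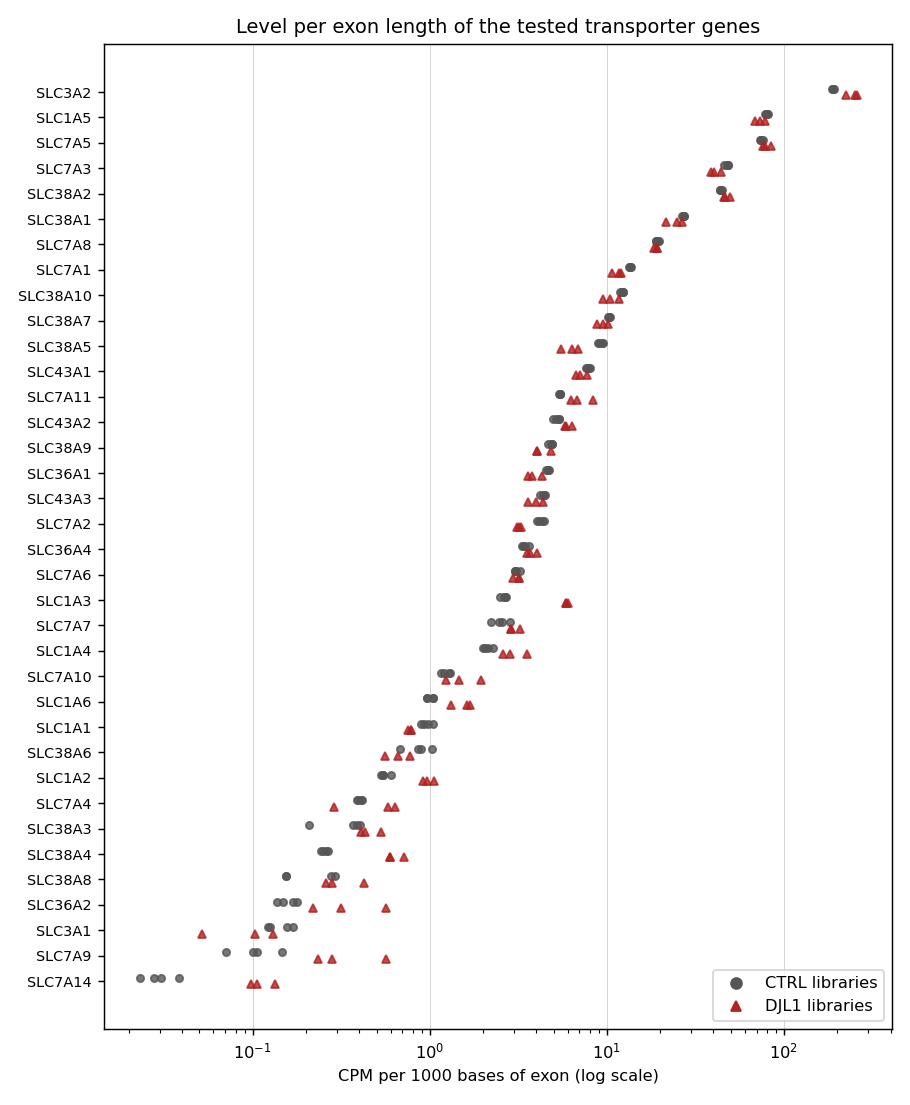
Level of each tested transporter gene in CPM per 1000 bases of exon (x axis, log scale), with a grey circle for each CTRL library and a red triangle for each DJL1 library, ordered by the CTRL mean. SLC3A2 stands apart at the top in both groups and SLC7A14 is lowest in CTRL.

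Promoter sequences are shown for the 4 members that hold the C/EBP-ATF composite motif TGATGNAA, the core of the element through which ATF4 acts on amino acid response genes. The windows are RefSeq's (GRCh38.p14), 250 bases before to 50 after the annotated start, and were found for 31 of the 40 members, not for SLC1A2, SLC38A3, SLC3A1, SLC43A3, SLC7A2, SLC7A3, SLC7A4, SLC7A11 and SLC7A13. They are written 5′ to 3′ on the gene's strand, with capitals on the composite motif and on the antioxidant response element TGACNNNGC, searched on both strands, and matches of these 2 motifs do not overlap in the windows shown. Positions count up from the annotated start as the first base and are negative before it, with no position 0. The starts used for SLC3A2 and SLC38A1 lie inside the gene's full span. SLC3A2 (chr11:62881449-62881748, plus strand) and SLC1A3 (chr5:36596338-36596637, plus strand) belong to genes that rose, SLC38A1 (chr12:46266467-46266766, minus strand) and SLC7A1 (chr13:29595639-29595938, minus strand) to genes that fell.
SLC3A2: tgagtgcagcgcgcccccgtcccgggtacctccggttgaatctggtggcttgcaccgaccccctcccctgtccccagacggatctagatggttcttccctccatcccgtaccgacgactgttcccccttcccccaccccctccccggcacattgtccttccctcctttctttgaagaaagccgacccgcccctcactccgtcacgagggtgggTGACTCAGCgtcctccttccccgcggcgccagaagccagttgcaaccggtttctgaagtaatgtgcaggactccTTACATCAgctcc
SLC1A3: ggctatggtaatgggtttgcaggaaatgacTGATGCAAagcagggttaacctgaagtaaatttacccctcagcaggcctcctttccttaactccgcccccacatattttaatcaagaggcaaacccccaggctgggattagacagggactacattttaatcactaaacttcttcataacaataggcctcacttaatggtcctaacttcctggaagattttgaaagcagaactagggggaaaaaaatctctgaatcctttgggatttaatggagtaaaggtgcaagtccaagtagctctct
SLC38A1: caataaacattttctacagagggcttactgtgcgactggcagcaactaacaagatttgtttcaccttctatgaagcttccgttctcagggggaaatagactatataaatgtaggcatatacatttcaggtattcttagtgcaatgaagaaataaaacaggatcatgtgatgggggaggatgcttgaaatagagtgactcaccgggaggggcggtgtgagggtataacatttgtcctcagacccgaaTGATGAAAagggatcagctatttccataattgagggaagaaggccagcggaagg
SLC7A1: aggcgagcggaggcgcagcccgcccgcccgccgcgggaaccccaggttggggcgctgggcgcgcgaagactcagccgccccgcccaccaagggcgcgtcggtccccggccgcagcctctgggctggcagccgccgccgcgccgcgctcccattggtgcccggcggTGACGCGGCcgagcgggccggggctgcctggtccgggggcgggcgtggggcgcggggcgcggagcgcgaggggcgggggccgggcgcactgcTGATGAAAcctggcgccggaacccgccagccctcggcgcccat
The composite motif was in 3.67% of all 27305 promoter windows and in 2.23% of those of tested genes. The match in SLC3A2 is on the other strand and starts at position 38, and the matches start at position 8 in SLC7A1, -4 in SLC38A1 and -220 in SLC1A3. The antioxidant response element was in 5 of 31 member windows (SLC3A2, SLC7A1, SLC7A5, SLC7A6 and SLC7A7) and in 13.6% of all windows. The E-box CACGTG was also in 5 of 31 (SLC1A7, SLC38A5, SLC38A7, SLC43A1 and SLC7A5), against 7.43% of all windows. Among the windows of tested genes, 14.5% held the antioxidant element and 8.98% the E-box. Of the members with the composite motif 2 were higher and 2 lower, and of those with the antioxidant element SLC3A2 and SLC7A7 were higher, SLC7A1 lower and the other two not called. Of those with the E-box SLC38A5 was lower, SLC1A7 was not tested and the rest were not called.

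Of the heavy chains, SLC3A2 rose and the other was barely expressed. SLC3A2 (chromosome 11, 62856109 to 62888860 in RefSeq's GRCh38.p14 annotation) encodes the CD98 heavy chain, the partner of LAT1, LAT2, xCT and the y+LAT light chains. It stood at 638, 641, 646 and 655 CPM in the CTRL libraries and at 765, 875 and 859.6 CPM in the DJL1 libraries. All DJL1 libraries lay above all CTRL libraries, and the log2 fold change was 0.37 ± 0.04 (SE, edgeR adjusted p = 5.1e-06). SLC3A2 alone held 24.9% to 25.6% of all member counts in CTRL and 28.6% to 32.0% in DJL1. SLC3A1, the rBAT heavy chain of the kidney cystine transporter, had 0.94 ± 0.15 CPM (CTRL) and 0.62 ± 0.26 CPM (DJL1) and was not called (log2 fold change -0.60, adjusted p = 0.127). It passed the test without DJL1 replicate 2 (-0.91, adjusted p = 0.0371), but the value was -0.31 without DJL1 replicate 1 (0.39) and -0.37 in thinned counts (0.448), and 29.4% of its exon bases are shared with PREPL on the opposite strand.

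Of 7 tested light chains, 3 were higher and 0 lower, a called share of 42.9% against 52.0% of all tested genes. By edgeR, DESeq2 and limma-voom alike, 0 of the 7 were lower, adjusted or at an unadjusted p under 0.05. SLC7A5 (chromosome 16, 87830023 to 87869507), the LAT1 chain that imports leucine and other large neutral amino acids, was at 335, 351, 342 and 339 CPM in CTRL and at 349, 385 and 356 CPM in DJL1. Its groups overlapped and it was not called (log2 fold change 0.09 ± 0.04, adjusted p = 0.0845). It passed with upper quartile factors (0.11, adjusted p = 0.0364), library size alone (0.11, 0.0382), a stricter filter (0.12, 0.0201) and without DJL1 replicate 1 (0.11, 0.0417). With no filter the value was 0.06 (adjusted p = 0.338) and without DJL1 replicate 2 it was 0.03 (0.377). The authors' deposited table gives SLC7A5 a log2 fold change of 0.10 with an adjusted p of 0.0275. SLC7A5 CPM per SLC3A2 CPM was 0.517 to 0.548 in CTRL and 0.415 to 0.457 in DJL1, without overlap. The near-identical pseudogene SLC7A5P2 was counted at 13.2 ± 0.47 CPM (CTRL) and 14.8 ± 2.40 CPM (DJL1), so reads of SLC7A5 may be split with it.

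SLC7A11 (chromosome 4, 138164097 to 138242349) is xCT, which takes up cystine for glutathione synthesis in exchange for glutamate. It held 52.4, 52.7, 52.4 and 52.0 CPM in the CTRL libraries and rose to 80.6, 60.5 and 65.8 CPM in the DJL1 libraries. The CTRL libraries were almost level and every DJL1 library was above them, with DJL1 replicate 1 well above the other two. SLC7A11 CPM per SLC3A2 CPM was 0.0794 to 0.0822 in CTRL and 0.106, 0.0691 and 0.0766 in DJL1, on both sides of CTRL. The log2 fold change was 0.40 ± 0.07 (edgeR adjusted p = 0.00022), and 0.26 without DJL1 replicate 1 (adjusted p = 0.0003).

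SLC7A8 (LAT2), which exchanges neutral amino acids, had 99.4, 96.4, 95.6 and 99.0 CPM in CTRL and 93.2, 96.7 and 96.8 CPM in DJL1. SLC7A6 (y+LAT2), an exchanger of arginine for glutamine, had 21.7, 22.9, 21.5 and 21.3 CPM in CTRL and 20.9, 22.6 and 22.5 CPM in DJL1. Both genes' groups overlapped, and neither was called (log2 fold changes -0.03 ± 0.04 and 0.01 ± 0.06, edgeR adjusted p = 0.547 and 0.924). The SLC7A6 value turned negative with relative log expression factors, with no filter and in DESeq2, and the SLC7A8 value positive with the stricter filter. Of the SLC7A6 exon bases 47.6% are shared with SLC7A6OS on the opposite strand, and whether the counting used strand is not given in the sources used here. SLC7A7 (y+LAT1), the carrier altered in lysinuric protein intolerance, rose from 12.3 ± 1.22 to 14.6 ± 1.04 CPM (0.25 ± 0.09, adjusted p = 0.024). That call was lost without CTRL replicate 3 (0.20, adjusted p = 0.0807), CTRL replicate 4 (0.25, 0.0582) or DJL1 replicate 2 (0.18, 0.112). SLC7A9, the light chain that pairs with SLC3A1, was low throughout but rose from 0.26 ± 0.08 to 0.87 ± 0.43 CPM (1.76 ± 0.41, adjusted p = 0.0021). SLC7A10, an exchanger of small neutral amino acids and D-serine, had 3.34 ± 0.20 and 4.16 ± 0.97 CPM and was called only without DJL1 replicate 1 among the alternatives run (0.45, adjusted p = 0.0222). Its log2 fold change was 0.31 with all libraries and 0.11 without DJL1 replicate 2 (adjusted p = 0.567).

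Of 4 tested glutamate carriers 3 rose and 0 fell, a called share of 75% against 52.0% of all tested genes. They held the largest change among members above 5 CPM. The fourth, SLC1A1, was lower at an unadjusted p under 0.05 by edgeR, DESeq2 and limma-voom, and adjusted by none of the 3 tools. SLC1A3 (chromosome 5, 36596588 to 36688334), the glial glutamate carrier EAAT1, was at 14.5, 13.7, 14.9 and 14.6 CPM in the CTRL libraries and at 33.5, 32.4 and 32.4 CPM in the DJL1 libraries. The 2 groups were far apart and each was tight, with a log2 fold change of 1.18 ± 0.06 (edgeR adjusted p = 4.2e-10), a 2.27-fold rise. SLC1A2, the related EAAT2, rose from 9.99 ± 0.62 to 17.6 ± 1.23 CPM (0.82 ± 0.08) and SLC1A6, the EAAT4 of Purkinje cells, from 4.99 ± 0.21 to 7.71 ± 0.97 CPM (0.63 ± 0.11). SLC1A1 (EAAT3), which also carries cysteine, had 3.82 ± 0.25 CPM (CTRL) and 3.10 ± 0.06 CPM (DJL1). Its DJL1 values all lay below its CTRL values, but it was not called (-0.31, adjusted p = 0.0618). SLC1A7 (EAAT5) was under the filter, at 0.31 CPM or less in every library. The summed level of the 5 glutamate carrier genes was 32.7 to 34.8 CPM in CTRL and 60.3 to 62.4 CPM in DJL1.

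The neutral exchangers of the same family parted. SLC1A4 (ASCT1), which exchanges alanine, serine and cysteine, was at 10.5, 9.86, 11.3 and 10.1 CPM in CTRL and at 12.8, 17.4 and 14.1 CPM in DJL1. All DJL1 libraries were above CTRL, with a log2 fold change of 0.50 ± 0.10 (edgeR adjusted p = 0.00054). SLC1A5 (ASCT2, chromosome 19, 46774883 to 46788594), a main glutamine importer of dividing cells, was at 268, 271, 265 and 262.0 CPM in CTRL and at 228, 243 and 261.7 CPM in DJL1. The highest DJL1 library reached almost to the lowest CTRL library, and the fall of 0.13 on the log2 scale passed the test narrowly (adjusted p = 0.0282). The call was lost without CTRL replicate 1 (log2 fold change -0.12, adjusted p = 0.0705), CTRL replicate 2 (-0.12, 0.0622), CTRL replicate 4 (-0.13, 0.0529) or DJL1 replicate 1 (-0.09, 0.087), and with the stricter filter (-0.10, 0.0642). An antisense gene of GENCODE, AC008622.2, shares 23.4% of its exon bases.

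**Figure D4:**
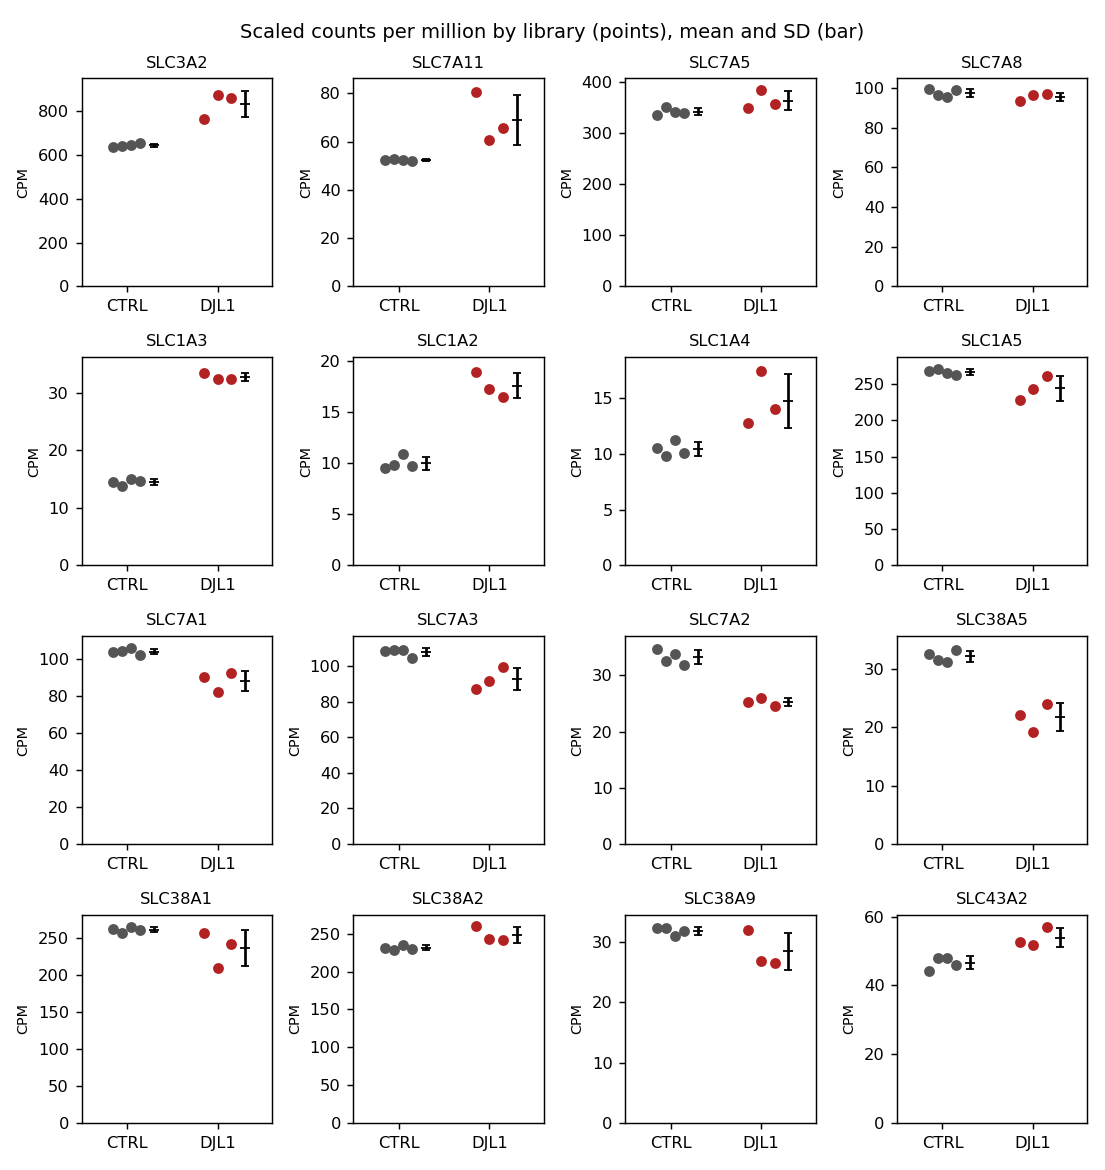
CPM (y axis, from 0) in each CTRL library (grey points) and DJL1 library (red points) for 16 transporter genes, with the group mean and SD as a black bar. The DJL1 libraries of SLC1A3 (32.4 to 33.5 CPM) stand clear of CTRL (13.7 to 14.9 CPM), while those of SLC7A8 overlap it.

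Of 5 carriers in the cationic group, 3 that import arginine and lysine fell and 1 rose. The called share was 80%, against 52.0% of all tested genes and 70.7% of those that reach 10 CPM, as the 3 that fell do. SLC7A1 (CAT-1, chromosome 13, 29509414 to 29595688), the broadly expressed arginine importer, was at 104, 104, 106 and 102 CPM in CTRL and at 89.9, 81.9 and 92.4 CPM in DJL1. SLC7A3 (CAT-3, chromosome X, 70925579 to 70931096) was at 109, 109, 109 and 104 CPM in CTRL and at 87.2, 91.6 and 99.3 CPM in DJL1. For both genes every DJL1 library was below every CTRL library, with log2 fold changes of -0.24 ± 0.05 and -0.22 ± 0.05 (edgeR adjusted p = 0.00036 and 0.001). SLC7A2 (CAT-2) fell further, from 33.3 ± 1.25 to 25.2 ± 0.71 CPM (-0.40 ± 0.05, adjusted p = 1.7e-05). SLC7A4, whose product is not known to carry cationic amino acids by itself, had 0.98 ± 0.03 and 1.23 ± 0.46 CPM and was not called (0.33, adjusted p = 0.331), although it passed without DJL1 replicate 3 (0.60, adjusted p = 0.0336). Without DJL1 replicate 1 the SLC7A4 value was 0.10 (adjusted p = 0.8). SLC7A14, a lysosomal member found mainly in neural tissue, rose from 0.31 ± 0.07 to 1.18 ± 0.20 CPM (1.91 ± 0.31), the highest fold change of the members. The summed level of the 5 genes was 239.6 to 249.9 CPM in CTRL and 202 to 218 CPM in DJL1.

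Sodium-coupled neutral carriers (SLC38) were split, with 2 of 10 tested members higher and 3 lower. Their called share of 50% was near the 52.0% of all tested genes. SLC38A1 (SNAT1, chromosome 12, 46183063 to 46269043), a glutamine importer, was at 262, 257, 264 and 259.8 CPM in CTRL and at 256, 209 and 242 CPM in DJL1. DJL1 replicate 1 was level with the lowest CTRL library, and the log2 fold change of -0.15 ± 0.05 passed the test narrowly (edgeR adjusted p = 0.0346). The call was lost when any CTRL library was left out (CTRL replicates 1 to 4: -0.14, -0.16, -0.14 and -0.14, adjusted p = 0.0785, 0.0516, 0.077 and 0.0726). Without DJL1 replicate 2 the value was -0.08 (adjusted p = 0.0586) and without DJL1 replicate 1 -0.22 (adjusted p = 0.0026). It was lost too with upper quartile factors (-0.13, adjusted p = 0.0557), library size alone (-0.13, 0.0534) and the stricter filter (-0.12, 0.0708).

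SLC38A2 (SNAT2), the member known for induction when amino acids run short, lies 89.1 kb from SLC38A1 with no coding gene between them and went the other way. It was at 232, 229, 236 and 230.0 CPM in CTRL and at 260.3, 244 and 242 CPM in DJL1. Every DJL1 library was above CTRL, but the log2 fold change was only 0.10 ± 0.04 (edgeR adjusted p = 0.0359). That call was lost when any CTRL library was left out (CTRL replicates 1 to 4: 0.10, 0.09, 0.11 and 0.10, adjusted p = 0.0755, 0.104, 0.0533 and 0.0826), without DJL1 replicate 1 (0.06, 0.188), with relative log expression factors (0.09, 0.0572) and with no filter (0.07, 0.225). SLC38A4 (SNAT4), 392 kb beyond SLC38A2, rose from 1.06 ± 0.04 to 2.64 ± 0.29 CPM (1.32 ± 0.18, adjusted p = 1.8e-05).

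The clearest fall was in SLC38A5 (SNAT5), an exporter and importer of glutamine and serine on chromosome X (48458544 to 48470260). It went from 32.1 ± 0.94 CPM in CTRL (31.2 to 33.2) to 21.8 ± 2.37 CPM in DJL1 (19.3 to 24.0), a log2 fold change of -0.56 ± 0.07 (edgeR adjusted p = 5.2e-06) and the lowest value among the called members. SLC38A10 fell from 65.9 ± 1.31 to 57.0 ± 6.05 CPM (-0.21 ± 0.06). SLC38A9, the lysosomal arginine sensor that signals to mTORC1, was at 32.3, 32.3, 30.9 and 31.9 CPM in CTRL and at 32.0, 26.8 and 26.6 CPM in DJL1. DJL1 replicate 1 lay within CTRL and the other two below it, so the gene missed the threshold (-0.16 ± 0.06, adjusted p = 0.0505) and passed without that library (-0.26, adjusted p = 0.00079), in DESeq2 (-0.17, 0.0395), in limma-voom (-0.16, 0.045), with relative log expression factors (-0.17, 0.0399) and with no filter (-0.19, 0.009). SLC38A9 stayed uncalled under 11 of the 16 alternatives, over which its log2 fold change ran from -0.26 to -0.12. SLC38A7, a lysosomal exporter of glutamine, had 57.2 ± 0.73 and 52.6 ± 3.82 CPM (-0.12, adjusted p = 0.0571). It passed in DESeq2 (-0.13, 0.0389), with relative log expression factors (-0.13, 0.0409), with no filter (-0.15, 0.0157), in thinned counts (-0.14, 0.0323) and without DJL1 replicate 3 (-0.18, 0.0044). SLC38A7 too stayed uncalled under 11 of the 16, with values from -0.18 to -0.08 over all of them. SLC38A6 had 3.71 ± 0.61 and 2.84 ± 0.45 CPM (-0.38, adjusted p = 0.0669). It passed with no filter (-0.41, 0.0382), with the replicate block (-0.49, 0.0363), without CTRL replicate 4 (-0.48, 0.0281) and without DJL1 replicate 1 (-0.51, 0.0319). SLC38A6 stayed uncalled under 12 of the 16, with values from -0.51 to -0.29 over all of them. SLC38A3 and SLC38A8 stayed under 2 CPM and were not called (log2 fold changes 0.40 and 0.55), and SLC38A11 was under the filter.

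Proton-coupled carriers (SLC36) gave 1 higher, 1 lower and 1 uncalled member, a called share of 66.7% against 52.0% of all tested genes. SLC36A1 (PAT1), which exports small amino acids from lysosomes, was at 32.3, 32.5, 32.9 and 31.4 CPM in CTRL and at 30.0, 25.1 and 26.4 CPM in DJL1. All DJL1 libraries were below CTRL (log2 fold change -0.25 ± 0.06, edgeR adjusted p = 0.003). SLC36A4 (PAT4), a high-affinity carrier of proline and tryptophan, was at 23.0, 20.9, 21.3 and 22.0 CPM in CTRL and at 25.6, 22.6 and 23.5 CPM in DJL1, which overlap (0.13 ± 0.06, adjusted p = 0.0948), and it passed with the stricter filter (0.16, 0.0347) but was at 0.07 without DJL1 replicate 1 (0.378). SLC36A2, the renal glycine and proline carrier that neighbours SLC36A1 on chromosome 5, rose from 0.60 ± 0.07 to 1.40 ± 0.69 CPM (1.21 ± 0.31, adjusted p = 0.004). Without DJL1 replicate 2 its log2 fold change was 0.75 (adjusted p = 0.0493). SLC36A3 was under the filter, as was the light chain SLC7A13. SLC7A13 had 0 counts in all 7 libraries, which allows at most 3 counts, or 0.0856 CPM in the shallowest library, a limit that covers counting error only.

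Of the SLC43 genes, SLC43A2 (LAT4), which lets leucine, phenylalanine and methionine pass down their gradient, was at 44.1, 48.1, 48.0 and 46.1 CPM in CTRL and at 52.8, 51.9 and 57.0 CPM in DJL1. All DJL1 libraries were above CTRL, with a log2 fold change of 0.21 ± 0.05 (edgeR adjusted p = 0.0024). Its relative SLC43A1 (LAT3) was at 25.3, 24.6, 25.5 and 24.1 CPM in CTRL and at 21.4, 22.6 and 24.7 CPM in DJL1, where DJL1 replicate 3 fell within CTRL (-0.12 ± 0.06, adjusted p = 0.119). SLC43A3, which carries purine nucleobases and not amino acids, lies 57.0 kb from SLC43A1 and had 19.6 ± 0.49 and 17.9 ± 1.81 CPM (-0.13, adjusted p = 0.13). SLC43A1 passed without DJL1 replicate 3 (-0.19, adjusted p = 0.0153) and SLC43A3 without DJL1 replicate 2 (-0.22, adjusted p = 0.0121). SLC43A1 stayed uncalled under 15 of the 16 alternatives, over which its log2 fold change ran from -0.19 to -0.08. Without DJL1 replicate 1, SLC43A3 was at -0.07 (adjusted p = 0.375).

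Genes of the amino acid response were set beside the transporters. That list of 29 genes holds ATF4, known targets of it, related stress response genes and the upstream kinase genes EIF2AK3 and EIF2AK4. In it 16 were higher and 4 lower, against 27.0% and 25.1% of all tested genes. The 4 lower genes were CBS, ALDH18A1, MTHFD2 and ATF5, with log2 fold changes of -0.54, -0.35, -0.19 and -0.14. The median log2 fold change was 0.15, against 0.01 over all tested genes. Most genes of the list reach 10 CPM, where the shares over all tested genes were 27.9% and 42.8% and the median -0.08. ATF4 itself had 402 ± 5.50 CPM (CTRL) and 397 ± 11.5 CPM (DJL1) (log2 fold change -0.02 ± 0.04, edgeR adjusted p = 0.72). The pseudokinase gene TRIB3 rose from 43.5 ± 1.73 to 73.0 ± 5.94 CPM (0.75 ± 0.06), DDIT3, which encodes CHOP, from 49.7 ± 1.97 to 78.5 ± 9.48 CPM (0.66 ± 0.06) and CHAC1, a glutathione-degrading enzyme, from 18.4 ± 0.86 to 26.3 ± 2.43 CPM (0.52 ± 0.07). The serine synthesis genes PHGDH and PSAT1 were not called (0.06 and -0.03, adjusted p = 0.178 and 0.553), and PHGDH passed with the stricter filter (0.09, adjusted p = 0.0323) but was at 0.03 with no filter and without DJL1 replicate 3 (0.608 and 0.547). ASNS, the asparagine synthetase gene, was listed at only 1.02 ± 0.20 and 0.96 ± 0.33 CPM (-0.09, adjusted p = 0.816). GENCODE places 70.8% of its exon bases also in another gene on the same strand, the table has a separate row CZ1P-ASNS at 0.40 CPM in CTRL, and how reads shared by such genes were counted is not given in the sources used here.

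**Figure D5:**
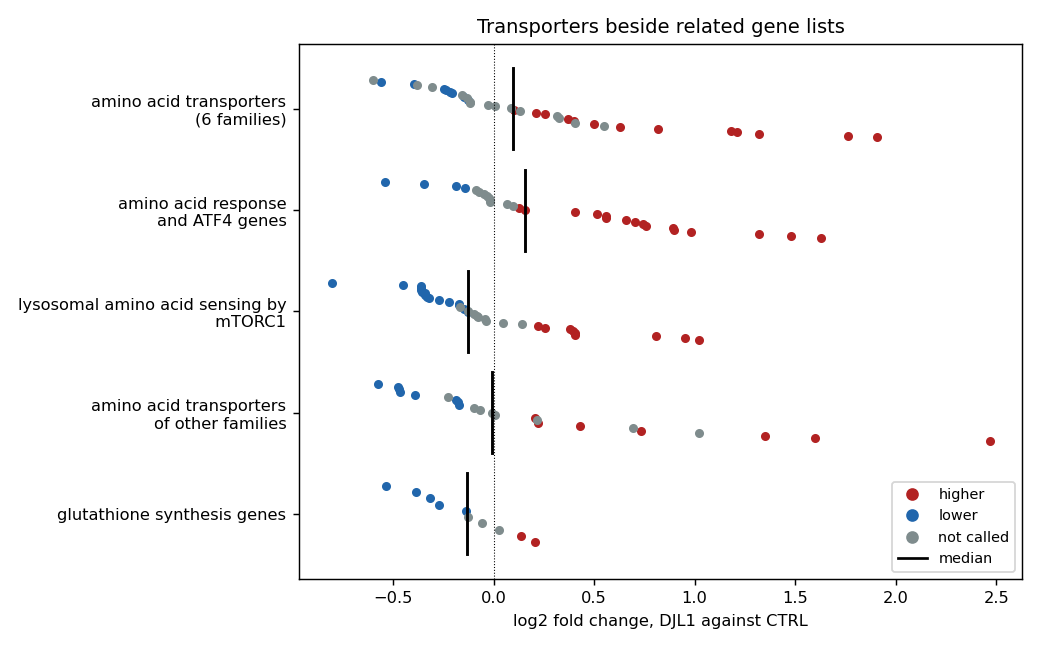
Log2 fold change of DJL1 against CTRL (x axis) for each tested gene of the 6 transporter families and of 4 related lists (y axis), coloured by call, with the list median as a black line. The medians run from -0.13 in the mTORC1 and glutathione lists to 0.15 in the amino acid response list.

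Of 34 genes of mTORC1 and its regulators, which sense amino acids at the lysosome, 9 were higher and 16 lower, with a median log2 fold change of -0.13. Most of them reach 10 CPM, a level at which 27.9% of all tested genes were higher and 42.8% lower, with a median of -0.08. SESN1 and SESN3, which encode sestrins that restrain mTORC1, rose from 38.9 ± 1.55 to 79.1 ± 4.09 CPM (1.02 ± 0.05) and from 36.7 ± 2.40 to 64.2 ± 5.03 CPM (0.81 ± 0.06). RRAGC, a Rag GTPase gene, rose from 69.4 ± 2.17 to 90.3 ± 2.15 CPM (0.38 ± 0.04), and ITFG2, a subunit of the KICSTOR complex, fell from 33.2 ± 0.66 to 19.0 ± 1.08 CPM (-0.80 ± 0.06). Of 26 amino acid transporter genes of other families 23 were tested, of which 7 were higher and 8 lower, with a median of -0.01. The shares over all tested genes were 27.0% and 25.1%. The mitochondrial carriers SLC25A29 (basic amino acids), SLC25A22 (glutamate) and SLC25A15 (ornithine) had log2 fold changes of -0.39, -0.47 and -0.57, and SLC32A1, the vesicular carrier of GABA and glycine, rose from 2.27 ± 0.19 to 5.79 ± 1.71 CPM (1.35 ± 0.17). Of 10 genes of glutathione synthesis and turnover, which use the cystine that SLC7A11 brings in, 2 were higher and 5 lower (median -0.13). All of these reach 10 CPM, the level with shares of 27.9% and 42.8% over all tested genes. CHAC2, GSR, OPLAH and GSS had log2 fold changes of -0.53, -0.27, -0.38 and -0.31.

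The authors' deposited table holds 35 of the 36 tested members, and all 35 have the same sign there. At an adjusted p under 0.05 the authors' deposited table gives 14 higher and 8 lower, and 21 are called in the same direction in both analyses. Both analyses use the same libraries.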

How the data were processed

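Poly(A) RNA of 4 CTRL and 3 DJL1 samples of H9 cells was sequenced from a directional library kit, per the labels' protocols. The count table, with raw counts for each symbol, was used as the authors deposited it. The submitters' processing notes list HISAT2 2.2.1, Trim Galore 0.4.0, Subread 1.5.0 and its featureCounts, and GRCh38 (hg38) as build, while the strand setting is not given in the sources used here. The authors' deposited comparison table lists genes with log2 fold change, raw p-value and adjusted p-value, per the file headers. Of its other columns, the authors' log2 average expression and scores (moderated t and log odds) were not used. A deposited table of normalised log values was not used because its transform is not stated.

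Groups were read from the sample titles. Rows were filtered with edgeR's filterByExpr (minimum count 10, minimum total 15), scaled by TMM factors and tested with edgeR 4.0.16 (quasi-likelihood, robust, 2-sided, R 4.3.3), with Benjamini-Hochberg adjustment over 26062 genes. The standard error is the log2 fold change over the root of F, and the fit was checked on simulated data. The simulation gave both groups the same spread for a gene, so the check does not cover the wider spread of DJL1. Alternatives were DESeq2 1.42.0, limma-voom 3.58.1, 3 other scalings, 2 other filters, counts thinned to the smallest library, the replicate number as a block, and each library left out in turn. Every member above 1 CPM was to be named, with each library's value for 16 genes and for called members past 2-fold above 5 CPM. Of the lists, 7 amino acid response genes and the 4 smallest adjusted p-values elsewhere were named. SLC3A1, SLC7A9, SLC38A8 and the untested members were added to account for every member. SLC7A5P2, CZ1P-ASNS, CBS, ALDH18A1, MTHFD2, ATF5, CGB3 and other marker genes were named after their values were seen. Members and lists were chosen with earlier results of these data known.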

Additional observations from a re-analysis of the deposited data

Results flagged for a closer look

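Of 55 genes checked, 2 had a CTRL library apart from the other CTRL libraries by Dixon's test at 95% (chance flags about 1 in 20 groups). SLC7A3 was at 104.3 CPM in CTRL replicate 4 and at 108.7 to 109.1 CPM in the others. SLC32A1 was at 2.55 CPM in CTRL replicate 1 and at 2.16 to 2.20 CPM in the others. The DJL1 group of 3 libraries is too small for that test.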

How the results depend on the processing

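Of 21 called transporter genes, 17 were called in the same direction under each of the 16 alternatives that tested them (the stricter filter left out SLC36A2 and SLC7A9), and the exceptions were SLC1A5, SLC38A1, SLC38A2 and SLC7A7. Over the alternatives, 11 to 14 members were higher and 6 to 11 lower. The replicate block gave 11 higher and 8 lower, with SLC1A5, SLC38A2 and SLC7A7 lost (adjusted p = 0.0633, 0.164 and 0.0597) and SLC38A6 gained (0.0363). Deviations of samples with the same number had correlations of -0.01, -0.04 and -0.03 across genes. No library with a same-numbered counterpart correlated best with its own number. Deviations were taken from the group means, so each library's correlations balance out. They cannot decide whether the numbers pair the samples. The glutathione genes called higher numbered 2, and 1 with DESeq2, relative log expression factors or no filter, 0 with the replicate block, and 0 to 2 with a library left out. Uncalled genes near 0 changed sign. SLC7A6 (log2 fold change 0.01) was at -0.0020 with DESeq2, -0.0018 with relative log expression factors, -0.023 with no filter, -0.0031 with the replicate block and -0.023 to 0.033 with a library left out. SLC7A8 was at 0.00024 with the stricter filter and ATF4 at 0.0012 with upper quartile factors and 0.013 with the stricter filter. With a library left out, ASNS ranged from -0.40 to 0.10 and PSAT1 from -0.074 to 0.0084. The cause of these changes was not tested. DJL1 libraries were shallower and more spread than CTRL, which limits members under 1 CPM. The wider spread was also seen in abundant members. The SD of SLC38A1 was 3.23 CPM in CTRL and 24.1 CPM in DJL1, and that of SLC1A5 3.90 and 17.1 CPM. The fit used the same dispersion for both groups, so standard errors and p-values rest partly on the tighter CTRL libraries.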
